A study of Mus musculus with 43 samples.

Results

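The genes described here are the variable (V) segments of the T cell receptor alpha and beta chains that could be read on these arrays. They were chosen as every gene symbol that starts with Trav or Trbv and a number, and where several probe sets carried the symbol alone, the brightest on average over the 43 arrays stands for the gene. This gave 6 genes among 22180 tested: the alpha chain segments Trav3-4, Trav7-4, Trav9d-3, Trav12-2 and Trav14d-3-dv8, and the beta chain segment Trbv13-2. A RefSeq gene table lists 165 such segments and pseudogenes, 130 alpha and 35 beta, so the 6 are a small part of both loci.

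RNA was measured on single-colour arrays of AND CD4+ T cells, which carry 1 transgenic receptor for a moth cytochrome c peptide, lack Rag2, bear the CD45.1 marker, and were sorted back from recipient mice as CD4+CD90.2+CD45.1+ cells. In iMCC recipients, treated with an anti-CD40 antibody, doxycycline in the water switches on the peptide in dendritic cells, and all of them drank 100 µg/ml up to day 3. After day 3 the none groups had 0 µg/ml, the low groups 10 µg/ml and the int groups 100 µg/ml. The day 30 off group had 100 µg/ml to day 10 and 0 µg/ml from then on. The day 10 high group came from cMCC recipients, another strain, which expresses the peptide constitutively in MHC class II positive cells and had 0 µg/ml. Naive AND cells spent 3 days in mice with neither transgene and 0 µg/ml before the sort, and whether those mice had the antibody is not given in the labels. On day 10 there were 5 none, 5 low, 4 int and 4 high arrays, on day 30 there were 5 each of none, low, int and off, and there were 5 naive arrays. The labels name no separate animals, so a p-value here reflects the spread between arrays of a group, which may be technical, and they do not say which lymphocytes of their own the recipients had. Cells of day 30 were sorted in a separate, later series, and a difference between the days cannot be told apart from one between the sort series. Array medians lay between 3.28 and 3.44 log2 units, and precision is limited by the 4 or 5 arrays per group.

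A T cell receptor chain is made by joining 1 V segment to a joining segment (with a diversity segment between them in the beta chain), and the joined exon is spliced to a constant region. The joining needs the recombinase of Rag1 and Rag2, so a Rag2-deficient T cell with a receptor transgene cannot rearrange its own loci, whose V segments stay in germline form. The receptor of AND cells uses Vα11, a segment of the Trav4 family, and Vβ3, which RefSeq lists as Trbv26 with the older name Tcrb-V3. None of the 7 Trav4 segments of the RefSeq table and no probe set for Trbv26 carried a symbol on this array, so not a single member is a segment of the transgenic receptor. Whether a member's signal comes from germline transcripts, from cross-hybridization with the transgenic or another transcript, or from other T cells was not tested. In bulk samples fewer cells of a type and less RNA per cell cannot be told apart.

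The probe sets listed under 1 symbol did not read alike. The 6 symbols had 19 single-symbol probe sets, and 2 pairs of them, both under Trav12-2, held equal values on all 43 arrays, which left 17 distinct profiles. Trav9d-3 had 5 probe sets, with means over all arrays of 12.83, 6.77, 3.62, 3.55 and 3.24 log2 units. Trav7-4 had 3, with means of 9.99, 4.28 and 2.45. Trav12-2 had 4 distinct ones, with means of 8.62, 4.97, 4.16 and 2.77. The 3 probe sets of Trav14d-3-dv8 stood close together at 4.00, 3.78 and 3.74. Trav3-4 (7.69) and Trbv13-2 (3.19) had 1 probe set each. Among the 4 symbols with several probe sets, Trav14d-3-dv8 alone had all of its means less than 1 log2 unit apart. A transcript of a joined receptor holds a V segment, a joining segment and a constant region, and the sources used here do not give the bases that a probe set detects. Many alpha V segments also exist as near-identical duplicated copies. The values below are therefore those of the probe sets that the annotation lists under a symbol, and are not shown to be levels of that V segment; levels of different probe sets are on different scales and are not ranked as amounts of RNA.

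**Figure D1:**
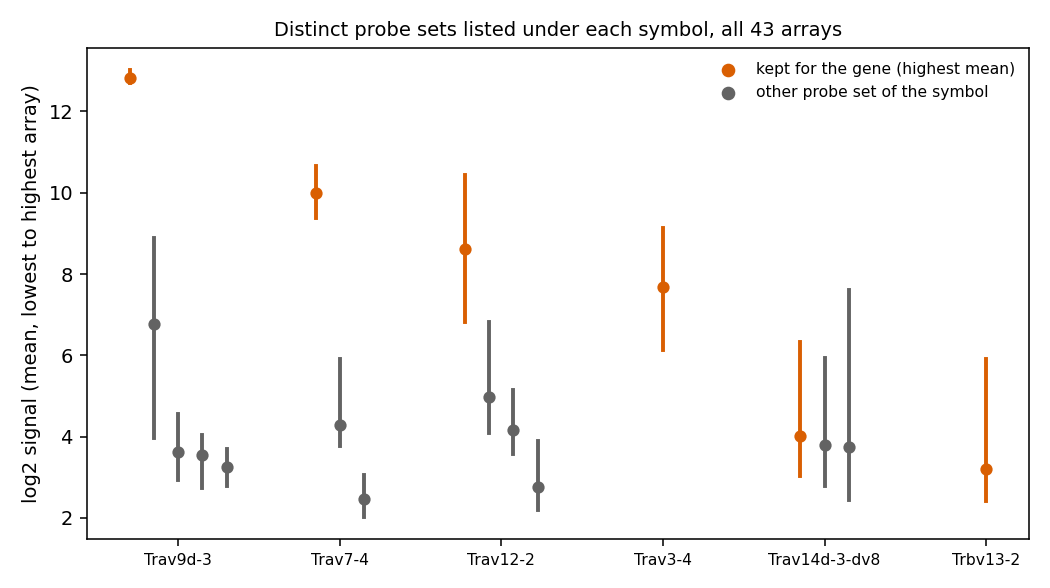
Mean log2 signal (point) and the range from the lowest to the highest of the 43 arrays (line) for each distinct probe set, grouped by gene symbol; orange marks the probe set kept for the gene. The kept probe sets of Trav9d-3, Trav7-4 and Trav12-2 lie 6.06, 5.72 and 3.65 log2 units above the next one of the same symbol, while those of Trav14d-3-dv8 lie within 0.26 of each other.

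The sort markers and the receptor's partner chains had similar summed signals on all arrays. The summed log2 signal of Cd4, Cd3e, Thy1 and Ptprc lay between 12.29 and 13.05 on every array. That of Cd3d, Cd3e and Cd3g, the CD3 chains that carry the receptor to the surface and the measured 3 of 7 genes listed for the receptor complex, lay between 12.37 and 12.88. Rag2, Dntt, which adds bases at the joints, and Ptcra, the partner of the beta chain in immature thymocytes, were the 3 of 4 recombination and pre-receptor genes measured, and their summed signal lay between 4.50 and 5.12. None of these 3 was called in any of the 12 comparisons or 2 interactions.

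The first comparison set cells primed until day 3 and then left without antigen against naive cells. Trav14d-3-dv8, a segment of the Vα2 family that can also join the delta chain, was lower in primed cells, and no other member was called. Its kept probe set, 17299893, read 3.18, 3.29, 3.43, 4.11 and 3.83 log2 units in day 10 none cells, against 6.33, 5.92, 5.24, 5.51 and 4.63 in naive cells. Every day 10 none array lay below every naive array. The change was -1.96 ± 0.39 (SE, log2 fold change, limma adjusted p = 0.000992). In day 30 none cells the same probe set read 5.07, 3.15, 3.57, 4.40 and 3.94, against the same naive arrays, and 4 of 5 arrays lay below all of them. There the change was -1.50 ± 0.39 (limma adjusted p = 0.0158). That call ended without day 30 none replicate 2 (adjusted p = 0.0645) or without naive replicate 1 (adjusted p = 0.0624). Both comparisons share the naive arrays. In each of them 1 of 6 members was called, against 3.3% of all genes on day 10 and 4.33% on day 30. The median change over the 6 members was 0.07 on day 10 and -0.56 on day 30, and over all genes it was -0.01 and 0.02.

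The other probe sets of Trav14d-3-dv8 showed the same difference. Tested singly, among all 23521 single-symbol probe sets, all 3 were lower in both comparisons, so that 3 of 19 member probe sets were called in each, against 3.26% of all probe sets on day 10 and 4.36% on day 30. The widest difference was that of probe set 17299913, which read 2.58, 2.65, 2.70, 2.93 and 4.21 in day 10 none cells and 6.98, 6.57, 7.61, 6.32 and 5.68 in naive cells. The log2 difference was -3.62 ± 0.40 (SE, limma adjusted p = 1.44e-08). Of the day 10 none arrays 4 of 5 read below the lowest array median, 3.28, and with no detection calls the signal is not shown to be above background there, so no fold is given. On day 30 the none arrays read 4.36, 3.78, 2.81, 4.31 and 3.56 (-2.87 ± 0.40, limma adjusted p = 3.5e-06). On this probe set the 5 naive arrays, from 5.68 to 7.61, lay above each of the 38 arrays of the other groups, which ran from 2.44 to 4.89 with a median of 3.11. The lowest naive array was 0.79 log2 units above the highest of the others, day 30 low replicate 3. The third probe set, 17300079, averaged 3.71 ± 0.48 (SD, n = 5) in day 10 none and 5.22 ± 0.65 in naive cells (-1.51 ± 0.26 SE, limma adjusted p = 0.000169). On it 3 of the 38 arrays of the other groups reached the lowest naive array, 4.45, and on the kept probe set 5 of 38 reached the lowest naive array, 4.63. No single array decided the calls of the 2 other probe sets, which held on leaving out each of the 10 arrays of either comparison in turn.

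**Figure D2:**
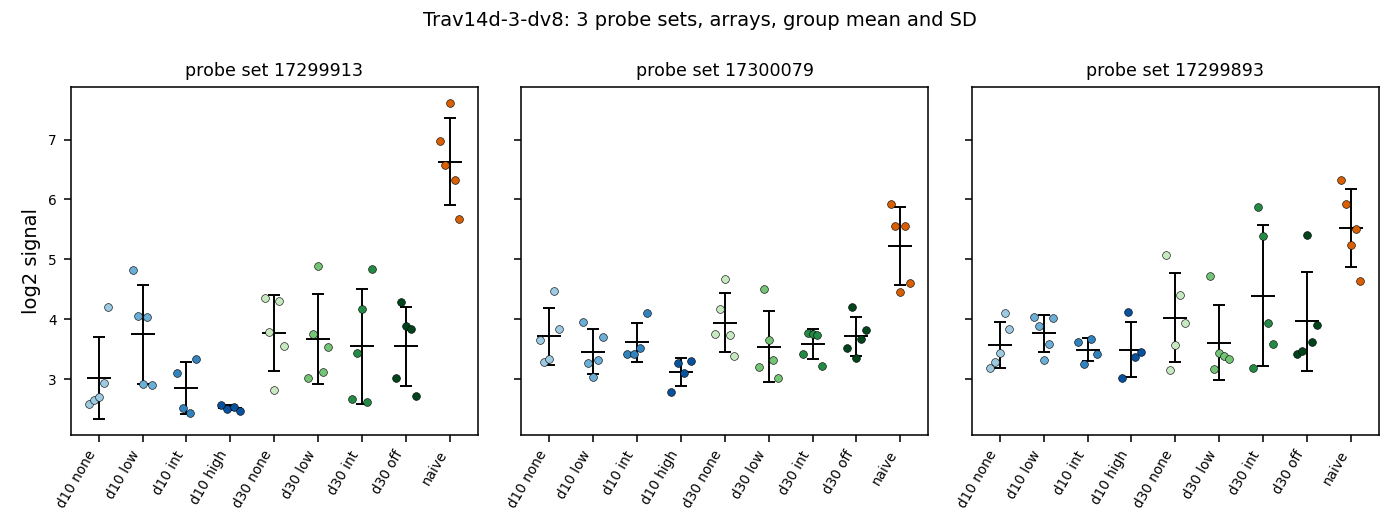
Log2 signal of the 3 probe sets of Trav14d-3-dv8 on a shared axis: each point is an array, and the bar and whiskers are the group mean and SD. Naive arrays stand to the right and above the means of all other groups on every probe set, without overlap on probe set 17299913.

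Among primed cells Trav14d-3-dv8 stayed low with scattered higher arrays. On the kept probe set the day 10 group means were 3.57 in none, 3.77 in low, 3.49 in int and 3.49 in high cells. On day 30 they were 4.03 in none, 3.61 in low, 4.39 in int and 3.96 in off cells. Single day 30 arrays reached the naive range: int replicates 2 and 3 read 5.87 and 5.39, off replicate 3 read 5.40, none replicate 1 read 5.07 and low replicate 1 read 4.72. The 2 other probe sets followed these arrays only in part. Day 30 none replicate 1 was the highest array of its group on the kept probe set and on 17299913 (4.36). The highest of all 38 primed arrays differed, with day 30 int replicate 2 on the kept probe set. It was day 30 low replicate 3 on 17299913 and day 30 none replicate 3 on 17300079. Where the kept probe set read 5.87 in day 30 int replicate 2, probe set 17299913 read 3.44 and probe set 17300079 read 3.77. No difference between primed groups was called on any of the 3 probe sets. The widest on the kept one was day 30 int over day 10 int, 0.90 with a 95% interval from 0.07 to 1.74 (limma adjusted p = 0.382, unadjusted p = 0.0341).

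Trbv13-2, the beta chain segment known as Vβ8.2, was not called between primed and naive cells. It read 2.41, 2.58, 3.09, 2.98 and 2.67 in day 10 none cells, against 4.30, 3.08, 3.92, 5.29 and 3.16 in naive cells. The groups touched, with 1 none array above the lowest naive array. All day 10 none arrays read below the lowest array median, 3.28, and with no detection calls the signal is not shown to be above background there. The difference was -1.20 ± 0.44 (SE) with limma adjusted p = 0.152, and on day 30 it was -0.82 ± 0.44 (adjusted p = 0.34). Its highest array of all was day 30 low replicate 3 at 5.91, in a group whose other arrays read 2.87, 2.47, 4.39 and 2.72. The group means of this segment ran from 2.75 in day 10 none to 3.95 in naive cells, with a within-group SD of 0.77.

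Markers of other cells differed between naive and primed arrays as well. In day 10 none against naive cells, 2 of 10 measured B cell markers, 1 of 12 myeloid markers, 2 of 5 markers of dendritic and antigen presenting cells and 3 of 3 regulatory T cell markers were lower, and 0 of any of these lists were higher. On day 30 the lower counts were 2 of 10, 7 of 12, 2 of 5 and 2 of 3. Of 17 immunoglobulin V segments, 3 were lower on day 10 and 2 on day 30. Over all genes 3.3% were called in either direction on day 10 and 4.33% on day 30. The summed log2 signal of the myeloid list lay between 7.38 and 9.46 in day 10 none, between 6.59 and 7.22 in day 30 none and between 7.38 and 11.94 in naive arrays. That of the immunoglobulin V segments lay between 7.47 and 7.73, between 7.53 and 8.09 and between 7.76 and 10.70 in the same groups. That of the B cell list, in which Ighm had means of 9.72 in day 10 none and 9.57 in naive cells, lay between 9.76 and 10.01, between 9.48 and 9.80 and between 9.41 and 10.76. For the antigen presenting cell list the ranges were 5.25 to 5.49, 5.46 to 5.63 and 5.63 to 7.75. For the regulatory T cell list they were 5.92 to 7.13, 5.58 to 6.20 and 8.68 to 9.39, so that the naive arrays lay apart. The CD8 T cell markers Cd8a and Cd8b1 and the measured gamma-delta and NK cell markers were not called in either comparison, and the red cell list had no measured member. The summed CD8 signal lay between 4.41 and 5.24 in day 10 none, between 4.36 and 4.84 in day 30 none and between 4.57 and 5.93 in naive arrays. The part of these other cells in the Trav14d-3-dv8 result was not tested.

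Some markers of myeloid and B cells, but not all, were higher in naive replicates 3 and 4 than in the other naive arrays. Lyz2, of myeloid cells, read 8.34 and 7.39 in naive replicates 3 and 4, against 2.61, 2.65 and 3.47 in replicates 1, 2 and 5. Cd79a, of B cells, read 7.68 and 6.65 against 5.00, 4.44 and 3.95. Cd14, of the myeloid list, read 2.69 and 2.31 against 3.01, 2.41 and 2.85. Cr2, of the B cell list, read 3.12 and 2.78 against 3.33, 3.22 and 3.28. Itgam, Ltf, Mpeg1 and Fcer1g, of the myeloid list, and Pax5, Fcer2a and Ebf1, of the B cell list, were not higher in both replicates either. Probe set 17299913 read 7.61 and 6.32 in replicates 3 and 4 and 6.98, 6.57 and 5.68 in the others. Without naive replicates 3 and 4 its changes were -3.40 on day 10 (limma adjusted p = 2.29e-06) and -2.65 on day 30 (adjusted p = 0.000245). The naive arrays kept in that fit still carried some marker signal. H2-Ab1, of antigen presenting cells, read at least 3.74 on every naive array. It read at most 3.28 in day 10 none and 3.53 in day 30 none cells. Not all genes of that list did so. H2-Eb1 read 3.52, 3.75 and 3.72 in naive replicates 1, 2 and 5, and at most 3.78 and 3.90 in the same none groups. H2-Aa read 2.83 in naive replicate 2, and at most 3.01 and 3.26 in those none groups. Lyz2 in naive replicates 1 and 2 was not above the none arrays. The part of other cells in the change was therefore not tested by leaving these arrays out. Of the CD8 T cell markers, Cd8a lay between 2.97 and 3.49 on the 5 naive arrays, and Cd8b1 read 4.95 and 5.70 in replicates 3 and 4 and 4.53, 4.06 and 3.74 in the others. Foxp3, of regulatory T cells, read 5.09, 5.22, 6.42, 5.15 and 4.92 on them.

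No call against naive cells was made for the other alpha chain members. Trav12-2 was nearest, with arrays of 10.44, 9.81, 9.67, 9.38 and 9.83 in day 10 none and 8.83, 9.49, 8.98, 7.63 and 8.91 in naive cells, and 4 of 5 none arrays lay above all naive arrays. The change was 1.06 ± 0.34 (SE, limma adjusted p = 0.0823), and it was called without naive replicate 2 (adjusted p = 0.0332). Trav3-4 averaged 8.35 ± 0.56 (SD, n = 5) in day 10 none and 7.97 ± 0.69 in naive cells. Trav7-4 averaged 10.14 ± 0.40 in day 10 none and 10.05 ± 0.26 in naive cells, and Trav9d-3 averaged 12.85 ± 0.11 and 12.79 ± 0.04 in the same groups.

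Trav12-2 had another pattern among the groups. Its kept probe set, 17300173, was highest in day 10 none cells. Setting day 30 none against day 10 none cells asks what time without antigen changes. The probe set read 8.64, 7.48, 7.58, 8.59 and 9.13 on day 30, against 10.44, 9.81, 9.67, 9.38 and 9.83 on day 10. All 5 day 30 arrays lay below all 5 day 10 arrays, and the change was -1.54 ± 0.34 (SE, limma adjusted p = 0.00796), or 2.91-fold. It held on leaving out each of the 10 arrays in turn (adjusted p 0.00499 to 0.0349). It was the only member called, 1 of 6, against 3.43% of all genes. The median change was -0.09 over the members and 0.02 over all genes.

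Trav3-4 stood next to it without being called. It read 7.94, 7.58, 7.70, 7.28 and 6.14 in day 30 none, against 7.78, 9.13, 8.35, 7.86 and 8.61 in day 10 none cells, and 4 of 5 day 30 arrays lay below all day 10 arrays. Its change of -1.02 ± 0.31 (SE) had limma adjusted p = 0.0516. The second brightest probe set of Trav9d-3, 17300181, had a change of -1.74 ± 0.57 that was not called either (limma adjusted p = 0.0756), with arrays of 6.49, 5.30, 5.07, 5.62 and 7.54 in day 30 none and 8.89, 8.19, 7.35, 6.36 and 7.92 in day 10 none cells. Trav7-4 averaged 10.05 ± 0.28 in day 30 none and 10.14 ± 0.40 in day 10 none cells, a change of -0.09 with a 95% interval from -0.43 to 0.26. Among non-members, Cd3e (-0.49 ± 0.12 SE, limma adjusted p = 0.0141) and Thy1 (-0.40 ± 0.11, adjusted p = 0.0292) were lower on day 30, as were 2 of 12 myeloid markers, S100a8 (-3.12 ± 0.79, adjusted p = 0.0191) and S100a9 (-2.86 ± 0.67, adjusted p = 0.0117). Of the 2 measured NK cell genes Ncr1 was higher (0.52 ± 0.14, adjusted p = 0.0291), with a mean of 3.29 in day 30 none and 2.77 in day 10 none cells, and Klrb1c was not called (-0.16 ± 0.27, adjusted p = 0.807). Ncr1 read at most 2.84 in day 10 none cells, below the lowest array median, 3.28, and is not shown to be above background there. The part of these in the Trav12-2 difference between the days was not tested.

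**Figure D3:**
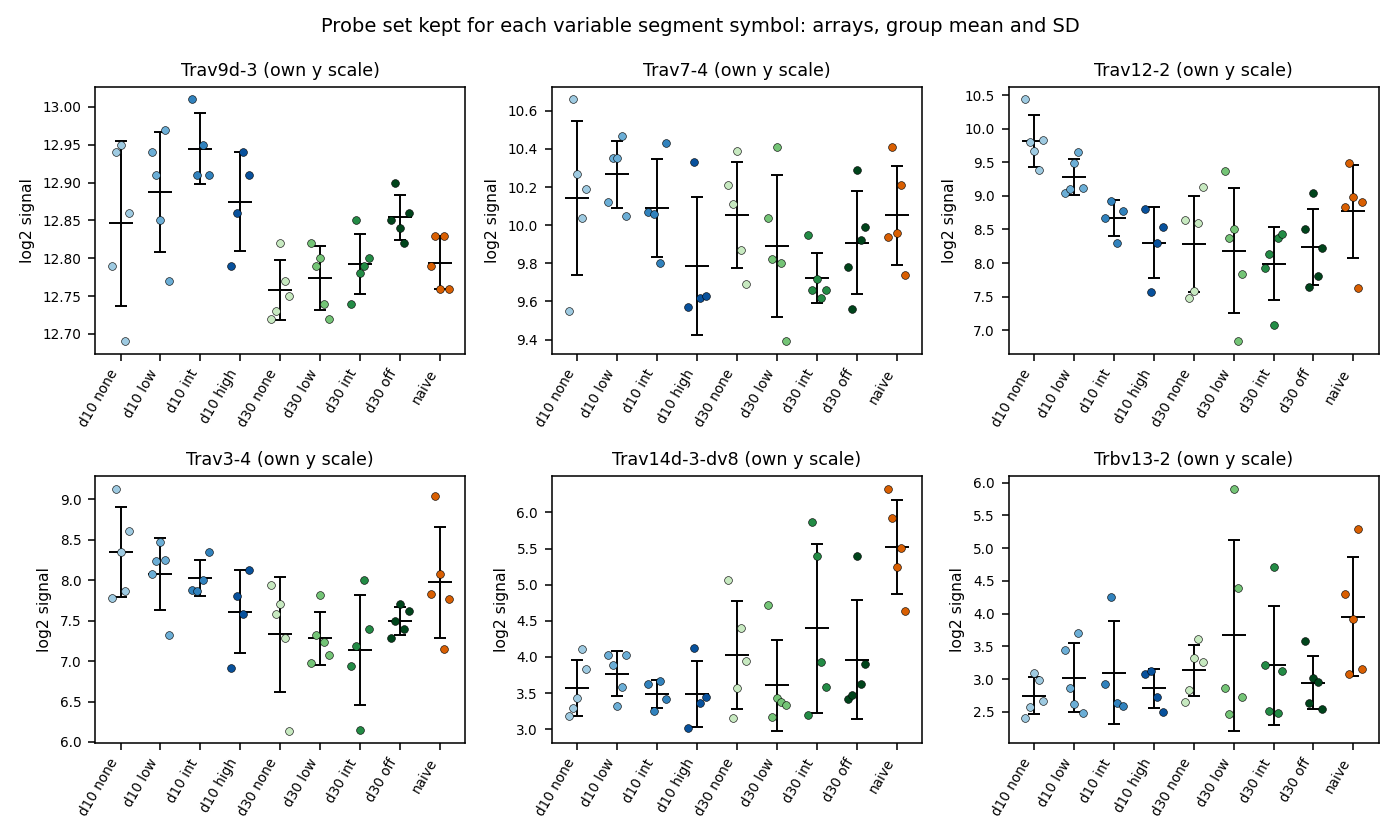
Log2 signal of the probe set kept for each of the 6 members in the 9 groups: each point is an array, bars and whiskers are the group mean and SD, and each panel has its own axis. Trav12-2 is highest in day 10 none cells (mean 9.83) and Trav14d-3-dv8 in naive cells (mean 5.53), while the group means of Trav9d-3 span 0.19 log2 units.

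On day 10 the group mean of the same Trav12-2 probe set fell in the order none, low, int and high, and no trend was tested. High cells came from another recipient strain, so antigen dose and strain cannot be told apart there. The group means of this probe set were 9.83 ± 0.39 (SD, n = 5) in none, 9.28 ± 0.27 (n = 5) in low, 8.67 ± 0.27 (n = 4) in int and 8.30 ± 0.53 (n = 4) in high cells. The high arrays read 8.81, 7.57, 8.30 and 8.53, all below the lowest none array, 9.38, and this difference was called (-1.52 ± 0.36 SE, limma adjusted p = 0.00514). It was lost without high replicate 3 (adjusted p = 0.0528). The int arrays read 8.67, 8.93, 8.30 and 8.78 and also lay below all none arrays, but the difference of -1.16 ± 0.36 was not called (limma adjusted p = 0.128, unadjusted p = 0.00261). With only these 2 groups in the model it was called (adjusted p = 0.0028), and so it was with array quality weights (adjusted p = 0.0126). The low arrays, from 9.04 to 9.65, overlapped the none arrays (-0.55, 95% interval -1.23 to 0.14, limma adjusted p = 1). Neighbours in this order, low beside none and high beside int, did not differ beyond their test (high over int -0.37, 95% interval -1.14 to 0.40); int against low was not tested. These comparisons and the one between days share the day 10 none arrays.

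Of the 6 members limma called 0 for low over none, against 0.00451% of all genes, 0 for int over none, against 1.24%, 1 for high over none, against 5.25%, and 0 for high over int, against 2.99%. At an unadjusted p under 0.05 it gave 0, 2, 2 and 0 members, and the share of all genes at that threshold is not given here. Trav3-4 averaged 8.35 ± 0.56 (SD, n = 5) in none, 8.07 ± 0.44 (n = 5) in low, 8.03 ± 0.22 (n = 4) in int and 7.61 ± 0.51 (n = 4) in high cells (high over none -0.74 ± 0.32 SE, limma adjusted p = 0.224). For high over none, Cd3g (0.34 ± 0.07 SE, limma adjusted p = 0.00125) was higher and Thy1 (-1.07 ± 0.12, adjusted p = 4.19e-09) lower. Of the NK cell markers, Klrb1c (1.60 ± 0.29, adjusted p = 0.000141) was higher, with all 4 high arrays above all none arrays, and Ncr1 was not called (0.13 ± 0.15, adjusted p = 0.766). Of the 3 regulatory T cell markers 2 were higher, Il2ra (1.73 ± 0.32, adjusted p = 0.000174) and, with 3 of 4 arrays above all none arrays, Ikzf2 (2.40 ± 0.40, adjusted p = 4.85e-05). Foxp3, the third, was not called (-0.40 ± 0.27, adjusted p = 0.527). Of 10 measured B cell markers 1 was called, Ighm, which was lower (-0.54 ± 0.14, adjusted p = 0.00976), and the median change of the list was -0.02, against 0.01 over all genes. The part of these in the Trav12-2 result was not tested.

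The differences of Trav12-2 were seen on its brightest probe set alone among the 4 distinct ones. With no detection calls the dimmer ones are not shown to read above background, and why they differ from the brightest was not tested. Probe set 17299857 ran from 4.10 to 6.82 over all arrays, above the highest array median, 3.44. The dimmest, 17300032, averaged 2.77 over all arrays, below the lowest array median, 3.28. Probe set 17299857 averaged 4.90 ± 0.55 (SD, n = 5) in day 30 none and 4.97 ± 0.29 in day 10 none cells. Probe set 17299849 averaged 4.26 ± 0.38 and 4.29 ± 0.45 in the same groups. On day 10 both had their highest mean in int cells, 5.76 ± 0.71 and 4.66 ± 0.33 (n = 4), where the brightest probe set had a lower mean than in none cells. No comparison called any probe set of Trav12-2 but the brightest. With the mean of all 6 probe sets in its place, the changes were -0.25 for day 30 over day 10 none (adjusted p = 0.47) and -0.33 for high over none (adjusted p = 0.397). That mean counts 2 pairs of equal probe sets and dilutes any change of the brightest alone, so it does not test that change.

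**Figure D4:**
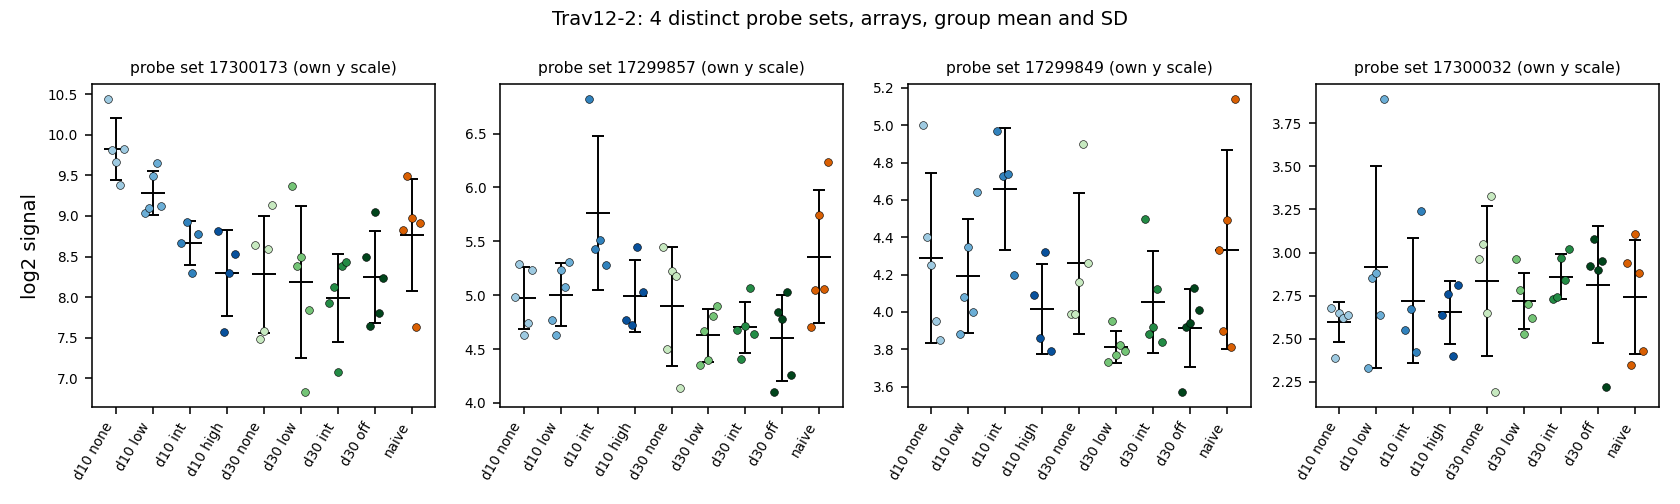
Log2 signal of the 4 distinct probe sets listed under Trav12-2, each on its own axis: points are arrays, bars and whiskers the group mean and SD. The step down on day 10 between none (9.83) and high (8.30) cells is seen on probe set 17300173, whereas probe sets 17299857 and 17299849 peak in int cells.

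On day 30 the dose of antigen and its withdrawal left all 6 members uncalled. Persisting antigen on that day, and taking it away after day 10, were compared with the none group, and off also with int. limma called 0 of 6 members for low over none, against 0.654% of all genes, 0 for int over none, against 2.21%, 0 for off over none, against 0.266%, and 0 for off over int, against 0.464%. At an unadjusted p under 0.05, for which no share of all genes is given here, there were 0, 0, 1 and 0 members. That one was Trav9d-3 in off over none cells, with arrays of 12.85, 12.90, 12.84, 12.82 and 12.86 against 12.72, 12.73, 12.82, 12.77 and 12.75, of which 4 of 5 off arrays lay above all none arrays (0.10 ± 0.04 SE, limma adjusted p = 0.32). Trav12-2 averaged 8.28 ± 0.72 (SD, n = 5) in none, 8.18 ± 0.93 in low, 7.99 ± 0.55 in int and 8.24 ± 0.57 in off cells. The 95% intervals of low, int and off over none, -0.79 to 0.59, -0.98 to 0.39 and -0.73 to 0.65, still allow changes of over 0.5 log2 units. Trav7-4 was 9.95, 9.66, 9.72, 9.62 and 9.66 in int cells, against 10.21, 10.11, 10.39, 9.87 and 9.69 in none cells (-0.33 ± 0.17 SE, limma adjusted p = 0.412).

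Whether the effect of antigen differed between the days was tested as an interaction, the effect on day 30 minus that on day 10. limma called 0 of 6 members for int, against 0.0902% of all genes, and 0 for low, against 0.0316%, and at an unadjusted p under 0.05 there were 0 in both. For Trav12-2 the int interaction was 0.86 with a 95% interval from -0.14 to 1.86 (adjusted p = 0.801). Cells kept under int antigen were also compared between days, where limma called 0 of 6 members, against 0.712% of all genes, and 4 had an unadjusted p under 0.05. These were Trav9d-3 (-0.15), Trav3-4 (-0.89), Trav7-4 (-0.37) and, in the other direction, Trav14d-3-dv8 (0.90). The share of all genes at that unadjusted threshold is not given here, so the count is not read as particular to the members.

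The bright probe set of Trav9d-3 varied least of all the member probe sets. Over 43 arrays it ran from 12.69 to 13.01, with a within-group SD of 0.06, near the top of each array's scale, which ended between 13.56 and 13.87. In day 30 int cells it read 12.74, 12.85, 12.78, 12.79 and 12.80, against 13.01, 12.91, 12.95 and 12.91 in day 10 int cells. These groups did not overlap, yet the difference of -0.15 ± 0.04 (SE) was not called (limma adjusted p = 0.058). Probe set 17300181 under the same symbol ran from 3.96 to 8.89, and its within-group SD of 0.99 was the widest of the 19. Its lowest array was naive replicate 4, at 3.96 in a group that otherwise read 6.77, 7.78, 5.97 and 7.40, and it was called in no comparison. The remaining 3 probe sets of Trav9d-3 stayed between 2.73 and 4.55 on all arrays and the dimmer 2 of Trav7-4 between 2.02 and 5.90, with no call. The bright probe set of Trav7-4 had group means between 9.72 in day 30 int and 10.27 in day 10 low cells.

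**Figure D5:**
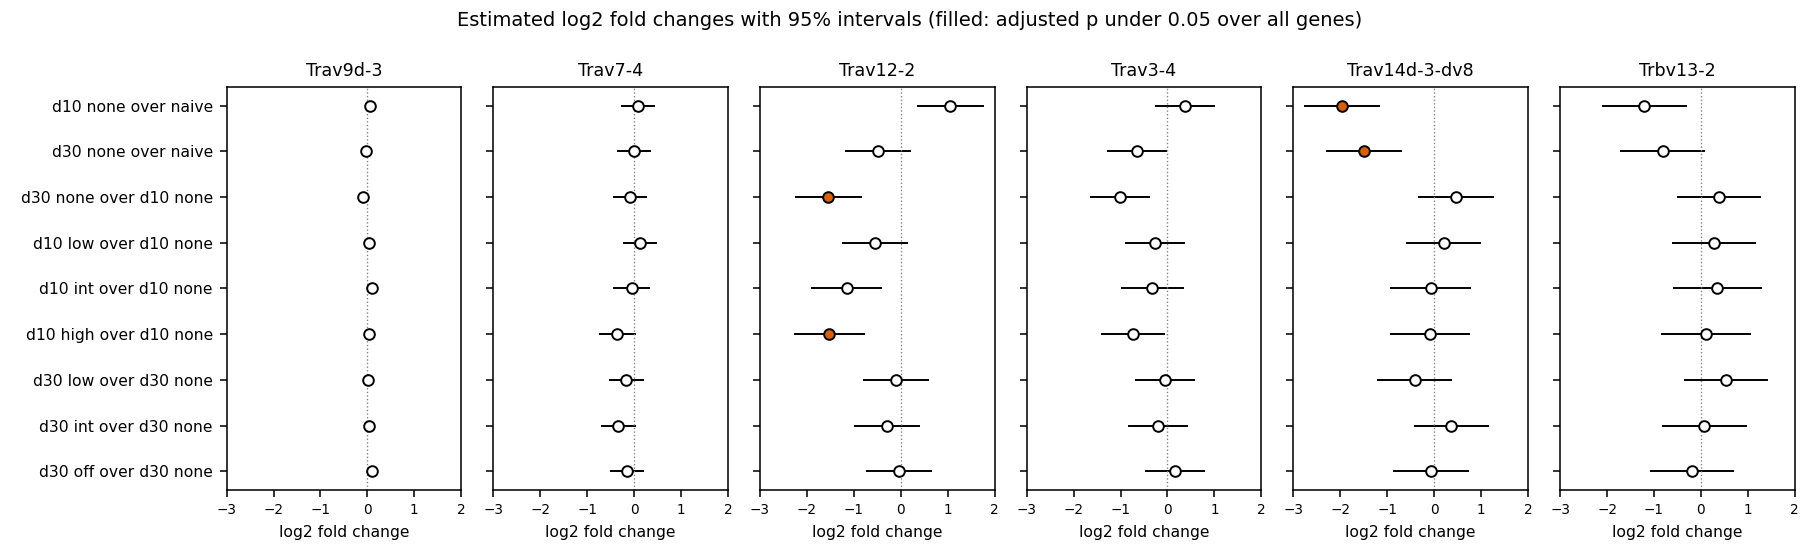
Log2 fold change (point) with its 95% interval (line) for the 6 members in 9 comparisons, the first-named group over the second; filled points have a limma adjusted p under 0.05 over all genes. Filled points stand for Trav14d-3-dv8 in both comparisons with naive cells and for Trav12-2 in day 30 over day 10 none and day 10 high over none cells, and the intervals of Trav9d-3 are narrower than its points.

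Other receptor loci gave no calls outside the comparisons with naive cells. The gamma-delta receptor had 2 of 17 listed genes measured, Trgv5 and Trgv6, neither of which was called in any comparison. The immunoglobulin V segments had 0 of 17 called in the 10 comparisons without naive cells and in both interactions. Against naive cells 3 of 17 were lower in day 10 none and 2 of 17 in day 30 none cells. Of all genes 3.3% and 4.33% were called there in either direction. The 2 measured of 6 gamma-delta T cell markers were Sox13 and Blk, and their summed log2 signal lay between 3.95 and 5.28 over all arrays.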

How the data were processed

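The authors deposited 1 log2 value per probe set and array, and these were analysed with no further scaling. The base was judged from their range of 1.46 to 13.87. How the arrays were background-corrected, summarized and normalized is not given in the sources used here. Per the labels' protocols, 0.1 to 30 ng of RNA was amplified and biotin-labelled. No detection calls were used. Of 41345 probe sets, 23521 carried 1 symbol, 1814 several and 16010 none. The probe set with the highest mean was kept per gene. Of the members, 6 of 6 matched a RefSeq gene.

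All 9 groups entered 1 linear model (limma 3.58.1, R 4.3.3, eBayes with trend), for 12 comparisons and 2 interactions. Calls were made where p, adjusted by Benjamini and Hochberg across the 22180 genes of each, was under 0.05. No intensity filter was used. On simulated data for day 30 none over day 10 none (22180 genes, 50 planted at each size), 20% of log2 changes of 0.5 were recovered, 82% of 1, 98% of 1.5 and 100% of 2, with 11 false calls. These shares are over the planted genes and need not hold for each member. In this comparison the SE of the members ran from 0.04 for Trav9d-3 to 0.44 for Trbv13-2.

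The members, marker lists and tests were chosen with earlier results of these data known. The naming rule, the receptor's own segments, called members, and those with the highest means or widest ranges, took in all 6 members. Alternatives were other scalings, variance models, filters, probe set choices, a replicate block and leaving out arrays; testing every probe set singly and taking the dimmest one were added after the values were seen. Red cell markers were not measured here. Replicate numbers shared between groups did not pair the arrays: correlations of same-numbered deviations ran from -0.138 to 0.117.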

Additional observations from a re-analysis of the deposited data

Results flagged for a closer look

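Single arrays far from the rest of their group were sought for each member in each group, 54 tests in all, of which chance flags about 1 in 20. The gap of the end array to its neighbour passed Dixon's 95% level 3 times. Trav14d-3-dv8 read 4.72 in day 30 low replicate 1, against 3.17 to 3.43 in the other low arrays. The same segment read 5.40 in day 30 off replicate 3, against 3.42 to 3.90 in the other off arrays. Trav7-4 read 10.33 in day 10 high replicate 3, against 9.57 to 9.63 in the other high arrays.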

How the results depend on the processing

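The number of members called was computed again under each alternative. Shares of all genes called under these settings are not given here, so an added call is not read as particular to the members. With array quality weights it was 2 for day 10 none over naive, 2 for day 30 none over day 10 none, 1 for day 10 int over none and 1 for day 30 int over day 10 int. With only the groups compared in the model it was 1 for day 10 int over none and 1 for day 30 int over day 10 int. With only genes of a mean of at least 4, which left 5 members, it was 2 for day 10 none over naive, 2 for day 30 over day 10 none and 1 for day 30 over day 10 int. Trav14d-3-dv8 passed this filter narrowly, with a mean of 4.004, a naive median of 5.51 and a primed median of 3.585. The naive arrays raised the mean that kept it, so its calls against naive cells under this filter are no separate support. With the mean of a gene's probe sets, or with its dimmest probe set, it was 0 for day 30 over day 10 none and 0 for day 10 high over none. The dimmest probe set of Trav12-2 turned these 2 changes to 0.24 and 0.0565, neither called; the cause was not tested. Leaving out 1 array gave 1 to 2 members for day 10 none over naive, 0 to 1 for day 30 none over naive, 1 to 3 for day 30 over day 10 none and 0 to 1 for day 10 high over none. The count was 2 without naive replicate 2 for day 10 none over naive, and for day 30 over day 10 none it was 3 without day 10 none replicate 4 and 2 without day 30 none replicate 1 or 3. The added calls were of Trav12-2, Trav3-4 and Trav9d-3. Counts in the other comparisons stayed at 0 on leaving out any array. Quantile normalization, median centring, no variance trend leaving out naive replicates 3 and 4 together, and testing each probe set singly moved no count. With the replicate number as a block the counts were 1, 1, 1 and 1 for the 4 comparisons with a call and 0 elsewhere, and this block changed no call of a member. Adding probe sets shared by several segments was not run, since 0 were made of V segments alone. With 4 or 5 arrays per group, changes of 0.5 log2 units were mostly missed in simulation.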
